A study of Homo sapiens with 6 samples.

Results

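The 10 genes described here were the vascular endothelial cadherin gene CDH5, 6 further cadherin genes (CDH1, CDH2, CDH3, CDH6, CDH11 and CDH13) and 3 catenin genes (CTNNA1, CTNNB1 and CTNND1). They were found by symbol among the 58825 gene identifiers of the count table. The genes were chosen from their measured difference between the groups, with CDH5 as the lead, so that difference is given below as a description, with its size and SE, and no call of significance is made for the 10 genes themselves.

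RNA-seq was performed on SKOV3, an established human ovarian cancer cell line, 48 h after transfection. The NC group of 3 libraries received a negative control siRNA, and the si-EIF5A2 group of 3 libraries received an siRNA against EIF5A2, the gene of a translation factor. Both groups came from the same cell line and, by their labels, differed in the siRNA only. The sources used here do not say whether the 3 libraries of a group came from separate cultures, so p-values measure the spread between these libraries, which may be technical.

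Classical cadherins are transmembrane proteins that hold neighbouring cells together by calcium-dependent binding outside the cell. Inside the cell, their tail binds p120-catenin near the membrane and beta-catenin further along, and alpha-catenin joins this complex to actin filaments. Epithelial cells are known for CDH1 (E-cadherin), mesenchymal and nerve cells for CDH2 (N-cadherin), and the endothelium of blood vessels for CDH5 (VE-cadherin). Beta-catenin also acts in the nucleus as the effector of Wnt signalling.

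The stretch of the tail around a run of 3 glycines is the shared p120-catenin binding region, and it is shown because it is what CDH5 has in common with the other cadherins measured here. The 51 coding bases around this run were read from GENCODE release 29 (GRCh38) for the 4 cadherins on which the levels below turn, with the 9 bases of the glycines in capitals.
CDH5: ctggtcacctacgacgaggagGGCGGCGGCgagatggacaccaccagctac
CDH2: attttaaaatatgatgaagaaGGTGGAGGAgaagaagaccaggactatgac
CDH4: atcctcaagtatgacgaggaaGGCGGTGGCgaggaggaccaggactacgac
CDH1: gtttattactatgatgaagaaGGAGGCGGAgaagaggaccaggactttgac
The CDH5 stretch lies within 1 exon at chr16:66402738-66402788 on the plus strand. The CDH2 stretch lies on the minus strand of chromosome 18 between 27963513 and 27982985, the CDH4 stretch on the plus strand of chromosome 20 between 61933083 and 61934064, and the CDH1 stretch on the plus strand of chromosome 16 between 68828263 and 68829662, each with an intron inside it. The CDH5 stretch shared 33 of its 51 bases with CDH4, 26 with CDH1 and 25 with CDH2. The run was searched for with a glutamate on each side, as in the stretches above, so a run between other residues was not counted. In this form it occurred once in 17 of 23 numbered CDH genes and in 6 of the 7 cadherins chosen. The exception among the 7 was CDH13, the cadherin that is anchored in the membrane by a lipid and has no tail. Over the whole protein, translated from the same annotation, CDH5 (784 residues) was identical to CDH11 at 42.3% of aligned positions, to CDH6 at 41.4%, to CDH1 at 36.9%, to CDH4 at 36.7%, to CDH2 at 35.2%, to CDH3 at 35.1% and to CDH13 at 33.0%. CDH2 and CDH4 were the closer pair, with 67.0% identity.

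The libraries held 46900204 to 74142267 deposited counts, which correspond to about 12744621 to 20038451 fragments, since low values rose in steps of about 3.7 counts. A gene at 0 could therefore have up to 3 fragments, or 0.152 to 0.235 CPM (counts per 1000000 counts of the library), from counting error alone. EIF5A2, the targeted gene, stood at 29.1 ± 1.15 CPM in NC, against 3.69 ± 0.817 CPM after its knockdown (SD, n = 3 each). In bulk RNA, fewer cells with a transcript and less transcript per cell cannot be told apart. Of 16208 genes tested across the genome, 24.6% passed an adjusted p under 0.05 together with a fold change over 1.5, which is the threshold meant below. The share was 13.6% for genes lower and 11.1% for genes higher in si-EIF5A2, and the 2 groups did not overlap in CPM for 51.2% of genes. These shares are the background for the gene lists below, and no call is counted for the 10 chosen genes. All the lists were drawn up with earlier results of these data known, so their shares are a description.

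Among the 10 genes, CDH5 was far lower in si-EIF5A2 and CDH2 was higher, while the 3 catenins that join these cadherins to the cytoskeleton differed by less than 1.5-fold. Of the 10 genes, 8 had at least 1 count and 6 passed the filter on low counts. The libraries of the groups did not overlap for CDH5, CDH2 and CTNNA1 and overlapped for CDH1, CTNNB1 and CTNND1, from which nothing is read since the genes were chosen on this difference. The median log2 fold change of the 6 genes was -0.06, and that of all genes tested was -0.01.

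CDH5 encodes VE-cadherin, the adhesion molecule that seals endothelial junctions, and it lies on the plus strand of chromosome 16 from 66366622 to 66404786, sharing no exon bases with another gene. Its level in the NC libraries was 28.9, 30 and 25.9 CPM. In the si-EIF5A2 libraries it was 0.958, 0.977 and 0.563 CPM. Every si-EIF5A2 library lay far below every NC library, and within each group the libraries kept close to each other. In deposited counts the values were 2109, 2128 and 1218 in NC against 49, 51 and 27 in si-EIF5A2. The latter are about 13.2, 13.9 and 7.3 fragments, all above the limit that a count of 0 allows. The mean fell from 28.3 ± 2.13 to 0.833 ± 0.234 CPM (SD, n = 3 each), which left 2.94% of the NC level. The fitted log2 fold change was -5.08 (SE 0.22), the 37th lowest of 16208 genes. Leaving out any 1 library gave values from -5.21 to -4.87. Per kilobase of exon, the scale on which different genes can be compared, CDH5 stood at the 61.0th percentile of the tested genes in NC and at the 9.5th percentile in si-EIF5A2.

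CDH2 (chromosome 18, minus strand, 27950966 to 28177446) encodes N-cadherin, the classical cadherin of nerve and mesenchymal cells. Its level was 71.6, 61.4 and 66.8 CPM in the NC libraries and 121, 127 and 113 CPM in the si-EIF5A2 libraries. All 3 si-EIF5A2 libraries were above all 3 NC libraries. The means were 66.6 ± 5.13 and 121 ± 6.97 CPM (SD, n = 3 each), a 1.81-fold higher level, with a fitted log2 fold change of 0.86 (SE 0.09). The value stayed between 0.80 and 0.91 when single libraries were left out.

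CDH1, on chromosome 16 from 68737225 to 68835548, encodes E-cadherin, the main adhesion molecule of epithelia, and was hardly present. Its level was 0.562, 1.0 and 0.425 CPM in NC and 0.45, 0.172 and 0.542 CPM in si-EIF5A2. These are about 2.4 to 19.2 fragments per library, and the groups overlapped. The means of 0.663 ± 0.302 and 0.388 ± 0.192 CPM (SD, n = 3 each) gave a log2 fold change of -0.78 (SE 0.61), which ranged from -1.10 to -0.35 when single libraries were left out.

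The other 4 cadherins were at or near 0 in these libraries and did not pass the filter. CDH3, which encodes P-cadherin of basal epithelia, had 11 counts, about 3.0 fragments, in NC replicate 1 and 0 in the other 5 libraries. CDH13, the lipid-anchored T-cadherin, had 4 counts, about 1.1 fragments, in NC replicate 1 and 0 elsewhere. CDH6 and CDH11, type II cadherins, the class in which CDH5 is usually placed, had 0 counts in every library. At this depth, a level up to the limit given above cannot be told from 0.

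All 3 catenins were measured well above the filter on low counts. CTNNA1, which encodes alpha-catenin, the link from the junction to actin, stood at 420, 447 and 437 CPM in NC and at 581, 581 and 558 CPM in si-EIF5A2. The groups did not overlap, and the means of 435 ± 13.7 and 573 ± 13.1 CPM (SD, n = 3 each) gave a log2 fold change of 0.40 (SE 0.06), which is inside the 1.5-fold limit. CTNNB1, which encodes beta-catenin, was at 301, 291 and 346 CPM in NC and at 353, 320 and 293 CPM in si-EIF5A2. Here the libraries of both groups were mixed, and the means were 313 ± 29.3 and 322 ± 29.9 CPM. The log2 fold change of CTNNB1 was 0.04 (SE 0.10), with values from -0.03 to 0.11 when single libraries were left out. CTNND1, which encodes the p120-catenin that binds the stretch printed above, was at 64.9, 73.6 and 71.5 CPM in NC and at 53.5, 78.1 and 56.8 CPM in si-EIF5A2. Replicate 2 of si-EIF5A2 was the highest of all 6 libraries for this gene and the other 2 were the lowest, so the groups overlapped. Its log2 fold change was -0.16 (SE 0.15), from -0.34 to -0.06 without single libraries. CTNNA1 lies on chromosome 5 from 138610967 to 138935034, CTNNB1 on chromosome 3 from 41194741 to 41260096 and CTNND1 on chromosome 11 from 57753243 to 57819546, all on the plus strand. CTNND1 shares exons with the readthrough gene TMX2-CTNND1, which had 0 counts.

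**Figure D1:**
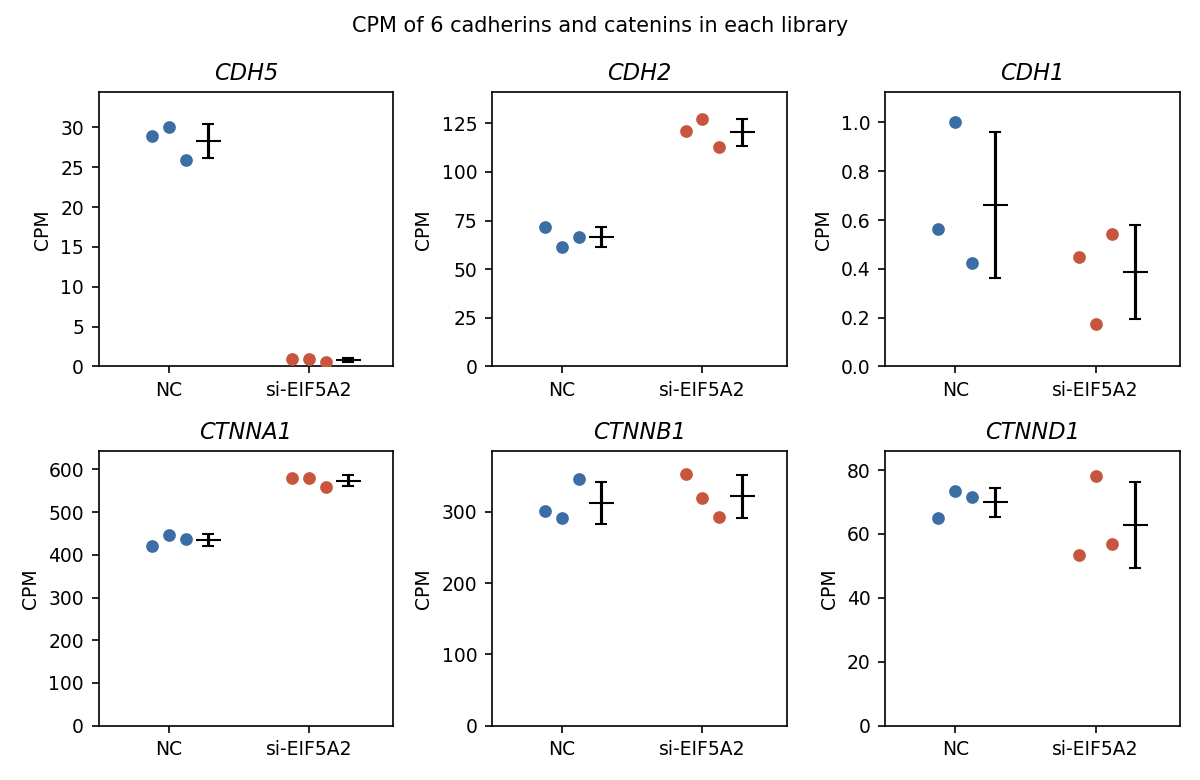
CPM (vertical axes, each from 0 with its own scale) of the 6 cadherins and catenins that passed the filter on low counts, in the 3 NC (blue) and 3 si-EIF5A2 (red) libraries. Points are libraries, and the black mark with bars is the mean ± SD. CDH5 is near 0 in all si-EIF5A2 libraries, CDH2 and CTNNA1 are higher in all of them, and the points of CDH1, CTNNB1 and CTNND1 overlap.

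The order of the genes by CPM per kilobase was the same in both groups, down to CDH1. In NC the order was CTNNA1 (49.2), CTNNB1 (26.2), CDH2 (13.5), CTNND1 (7.96), CDH5 (4.65) and CDH1 (0.107), and the libraries of neighbours in this order did not overlap. In si-EIF5A2 the levels were CTNNA1 (64.9), CTNNB1 (27.0), CDH2 (24.4), CTNND1 (7.14), CDH5 (0.137) and CDH1 (0.0628). There, CTNNB1 and CDH2 overlapped, and the other neighbours did not.

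The summed level of cadherin transcripts overlapped between the groups, while its makeup differed. Added over the 23 numbered CDH genes, of which 10 had any count, the level was 32.5, 30.5 and 29.4 CPM per kilobase in NC and 29, 30.8 and 27.3 in si-EIF5A2. The means were 30.8 ± 1.59 and 29 ± 1.75 CPM per kilobase (SD, n = 3 each), so the sum in si-EIF5A2 was 94.2% of that in NC. CDH2 made up 43.6% ± 2.74 of this sum in NC and 83.9% ± 0.696 in si-EIF5A2. The share of CDH5 was 15.1% ± 0.94 in NC and 0.468% ± 0.113 in si-EIF5A2. CDH4, which encodes R-cadherin, the close relative of N-cadherin, had 34.4% ± 1.63 in NC and 9.03% ± 0.776 in si-EIF5A2. CDH24, a type II cadherin, had 6.37% ± 0.462 and 6.13% ± 0.449, and CDH1 0.348% and 0.221%. A share depends on the other genes of the sum, so these values describe the makeup and add no test to the levels above.

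**Figure D2:**
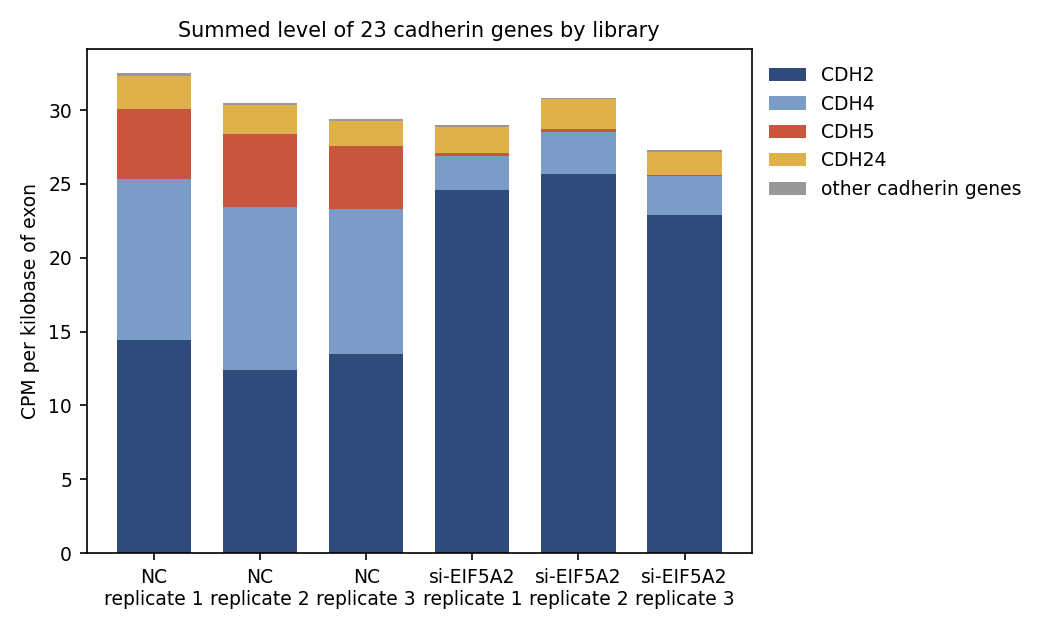
Summed level of the 23 numbered CDH genes in each library (vertical axis, CPM per kilobase of exon, from 0), stacked by gene. The totals lie between 27.3 and 32.5, while the CDH5 and CDH4 layers are thin and the CDH2 layer is tall in the 3 si-EIF5A2 libraries.

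Around CDH5, the nearest protein-coding genes before it on chromosome 16 were CDH11, at 1240510 bases, CDH8 and AC018554.3, and all of them had 0 counts in every library. After it came BEAN1, at 22511 bases, with at most 7 counts in a library, AC010542.3 with 0 counts, and TK2, which encodes mitochondrial thymidine kinase, at 103217 bases. TK2 was at 20.0, 20.5 and 21.8 CPM in NC and at 12.9, 11.7 and 13.1 CPM in si-EIF5A2, and it was the nearest neighbour that could be tested. TK2 fell with a log2 fold change of -0.72 (SE 0.11, adjusted p = 0.00125 by Benjamini-Hochberg in the quasi-likelihood fit of edgeR). Of the 7 cadherins chosen, 5 lie on chromosome 16.

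The 5 tested genes whose profile over the 6 libraries was nearest to that of CDH5 were KRT81, CFP, UCP2, ENSG00000258150 and GPR19. Nearness was the root mean square difference between centred log2 CPM profiles (prior count 2), which was 0.274 for KRT81, a hair keratin, 0.306 for CFP, the complement factor properdin, 0.368 for UCP2, a mitochondrial carrier, 0.426 for ENSG00000258150 and 0.455 for GPR19, an orphan receptor. KRT81 was at 34.0, 29.3 and 25.1 CPM in NC and at 1.02, 0.613 and 0.563 CPM in si-EIF5A2. UCP2 was at 22.4, 24.6 and 17.6 CPM in NC and at 1.41, 1.03 and 0.625 CPM in si-EIF5A2. CFP, ENSG00000258150 and GPR19 had means of 0.884, 0.84 and 0.677 CPM in NC and 0 counts in every si-EIF5A2 library, so their likeness depends on the prior count. KRT81 has near-identical relatives among the hair keratins, and its counts could be split between them.

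Outside the 10 genes, cadherin and junction genes from 4 lists were counted in the same fit. The lists held 77 genes, of which 40 were tested and 16 were past the threshold, 7 lower and 9 higher (40.0% of those tested, against 24.6% of all genes). Their median log2 fold change was -0.24. These lists were drawn up with earlier results of these data known, so their counts are a description and not independent evidence.

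Of the 24 other cadherins, 14 were at 0 in every library and 6 were tested, of which 2 fell and 1 rose. Thus 3 of the 6 tested genes were past the threshold, against 24.6% of all genes. Their median log2 fold change was -0.47. CDH4 was at 80.3, 81.4 and 72.0 CPM in NC and at 17.4, 21.1 and 19.4 CPM in si-EIF5A2. All si-EIF5A2 libraries were thus below all NC libraries, and CDH4 fell by 2.01 on the log2 scale (SE 0.10, edgeR with Benjamini-Hochberg adjustment, adjusted p = 9.28e-06). The calsyntenins, cadherin-related proteins of nerve cells, went both ways, with CLSTN3 falling from 8.07 to 4.57 CPM (log2 fold change -0.82, SE 0.15, edgeR adjusted p = 0.00366) and CLSTN1 rising from 218 to 340 CPM (0.64, SE 0.07, edgeR adjusted p = 2.81e-04). CDH24 (-0.14, SE 0.17), CDH15 (-0.34, SE 0.89) and CDHR3 (-0.60, SE 0.55) did not pass.

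Desmosomes are the junctions that tie keratin filaments of neighbouring cells together through the desmosomal cadherins, desmocollins and desmogleins. Of 13 desmosome genes, 8 were tested, of which 4 rose and 1 fell (62.5%, against 24.6% of all genes). Their median log2 fold change was 0.58. PERP, a membrane protein of desmosomes, rose from 52.9 ± 2.16 to 189 ± 11.9 CPM (SD, n = 3 each, log2 fold change 1.84, edgeR adjusted p = 5.45e-06). DSP, the desmoplakin that binds keratin, rose from 24.4 to 41.6 CPM (0.77, SE 0.13) and the desmocollin DSC2 from 4.47 to 8.01 CPM (0.84, SE 0.19). DSC3 rose from 0.706 to 1.83 CPM (1.36, SE 0.43, edgeR adjusted p = 0.0405). This call was lost when any 1 library other than NC replicate 2 was left out, with edgeR adjusted p from 0.0574 to 0.104. PKP3, a plakophilin, was the desmosome gene that fell, from 14.7 to 5.46 CPM (-1.43, SE 0.26). DSG2, a desmoglein, had a log2 fold change of 0.40 (SE 0.08), inside the fold limit, PKP2 had -0.50 (SE 0.27), and JUP, the plakoglobin shared with adherens junctions, had -1.54 (SE 1.22) at a mean of 0.58 CPM in NC.

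Of 20 other catenins and junction partners, 16 were tested, of which 3 rose and 3 fell (37.5%, against 24.6% of all genes). Their median log2 fold change was 0.01. Genes on the actin side of the junction went both ways, with VCL and ACTN4 lower and LIMA1 higher. VCL encodes vinculin, which binds alpha-catenin under tension, and fell from 270 ± 9.42 to 106 ± 8.29 CPM (SD, n = 3 each, log2 fold change -1.35, edgeR adjusted p = 1.55e-05). ACTN4, an actin crosslinker, fell from 1080 to 661 CPM (-0.70, SE 0.07), while its relative ACTN1 stood at 731 and 705 CPM (-0.05, SE 0.07). ARVCF, a relative of p120-catenin, fell from 5.91 to 3.17 CPM (-0.90, SE 0.17). PTPRF, a receptor phosphatase found at cadherin junctions, rose from 187 ± 6.72 to 501 ± 5.17 CPM (SD, n = 3 each, 1.42, edgeR adjusted p = 6.51e-06). PTPRB, the endothelial phosphatase that binds VE-cadherin, stood at 8.91 and 9.34 CPM (0.07, SE 0.19). NECTIN3, an immunoglobulin-type adhesion molecule of the same junctions, rose from 27.2 to 41.6 CPM (0.61, SE 0.11), and came inside the fold limit at 0.53 to 0.58 without NC replicate 1, si-EIF5A2 replicate 1 or si-EIF5A2 replicate 3. LIMA1, an actin-binding protein, was the remaining rise (1.12, SE 0.24), with edgeR adjusted p = 0.0501 without NC replicate 1 and 0.0565 without NC replicate 3. VCL shares 11.1% of its exon bases with AP3M1 on the opposite strand and ACTN4 14.2% with CAPN12, and whether the libraries keep strand is not given in the sources used here.

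Of 20 non-clustered protocadherins and FAT, Dachsous and CELSR cadherins, 10 were tested and 2 were past the threshold. That is 20.0%, against 24.6% of all genes, and the median log2 fold change was -0.46. CELSR2, a planar polarity cadherin, fell from 6.30 to 3.04 CPM (-1.05, SE 0.19, edgeR adjusted p = 0.00364). FAT1, a giant cadherin, rose from 33.8 to 51.0 CPM (0.59, SE 0.15, edgeR adjusted p = 0.0178), a call lost without NC replicate 2, NC replicate 3 or si-EIF5A2 replicate 3, where its log2 fold change was 0.41 to 0.56. PCDH12, an endothelial protocadherin, had -0.82 (SE 0.30) at 1.96 CPM in NC and did not pass.

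**Figure D3:**
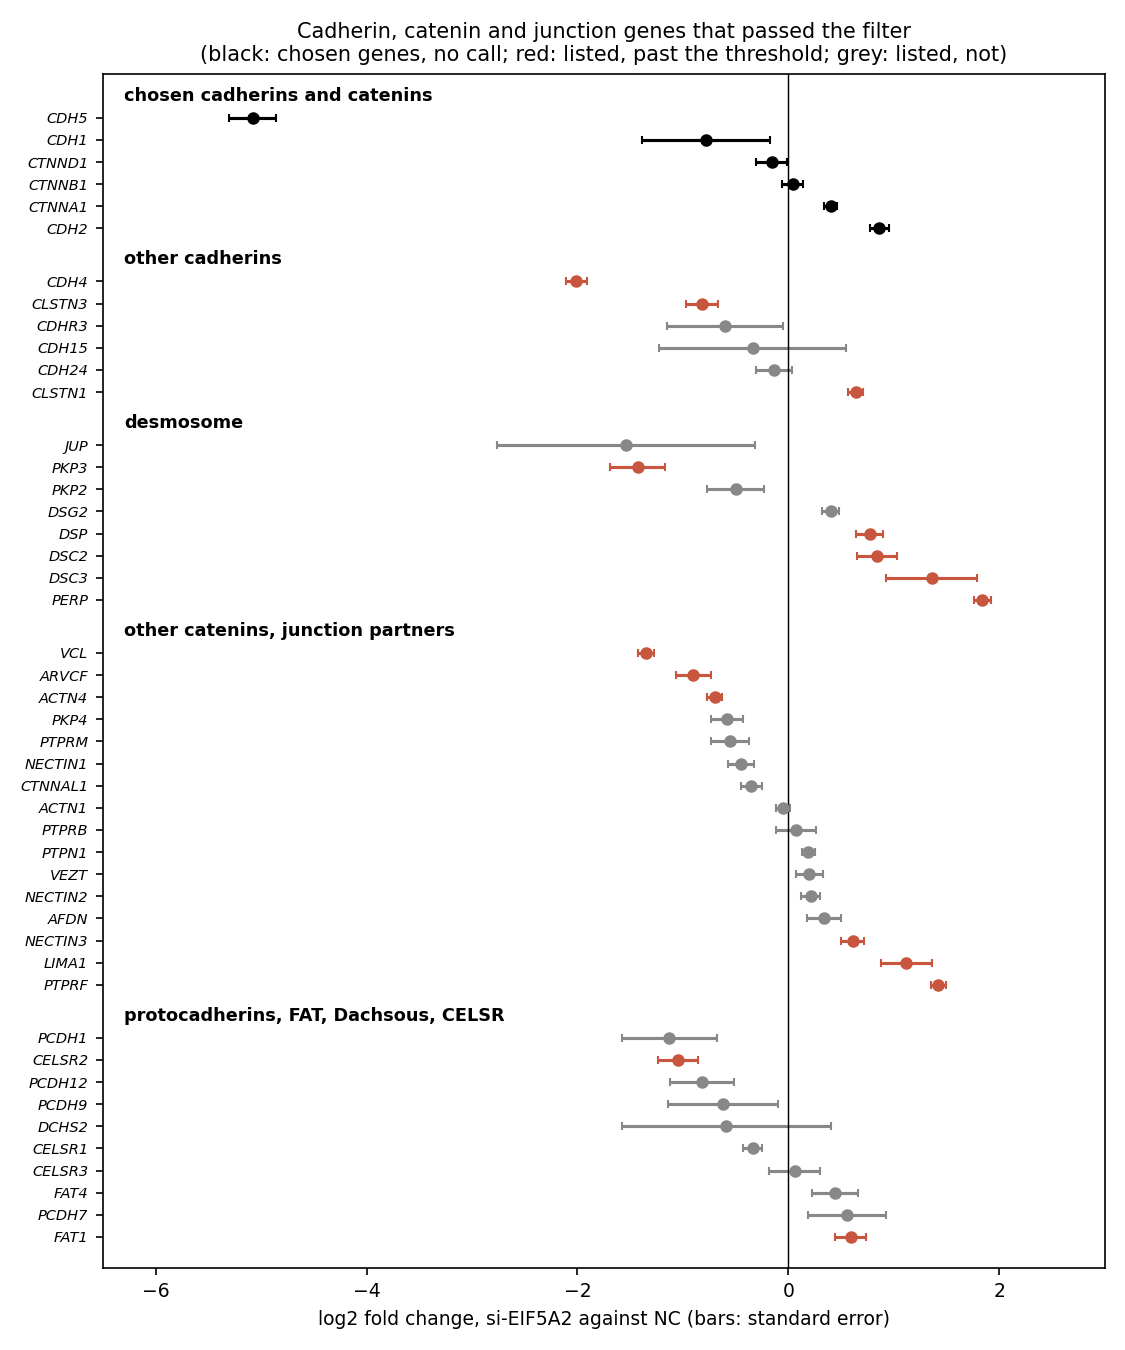
Fitted log2 fold change of si-EIF5A2 against NC (horizontal axis, negative is lower in si-EIF5A2) with its SE as bars, for the 6 of the 10 chosen genes that passed the filter (black, no call) and the 40 tested genes of 4 lists, n = 3 libraries per group. Among the listed genes, red marks those past the threshold and grey those that are not. CDH5 at -5.08 lies furthest to the left and PERP at 1.84 furthest to the right.

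Cadherins are cut free of their propeptide by proprotein convertases and shed by ADAM10. Of 8 genes for processing and turnover, 7 were tested, and 28.6% of these were past the threshold, against 24.6% of all genes. Their median log2 fold change was -0.04. PCSK5, a convertase, fell from 3.96 to 1.62 CPM (-1.29, SE 0.28, edgeR adjusted p = 0.00844). FURIN (-0.23, SE 0.09) and ADAM10 (0.33, SE 0.10) were inside the fold limit.

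Beta-catenin that is not held at the membrane is marked for degradation by the destruction complex. All 9 genes listed for this complex were tested, of which 1 fell and 1 rose (22.2%, against 24.6% of all genes). Their median log2 fold change was 0.12. BTRC, the ligase subunit that recognises phosphorylated beta-catenin, fell from 26.4 ± 1.59 to 8.67 ± 1.33 CPM (SD, n = 3 each, log2 fold change -1.61, edgeR adjusted p = 9.10e-05). Its relative FBXW11 was at 82.5 and 111 CPM (0.43, SE 0.09), inside the fold limit. AXIN1, the scaffold, rose from 34.1 to 57.2 CPM (0.75, SE 0.13, edgeR adjusted p = 0.00285), and GSK3B, the kinase, had 0.54 (SE 0.07), also inside the fold limit. AXIN2, a known target of Wnt signalling, was at 0.495 and 0.40 CPM (-0.30, SE 0.61).

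Of 9 nuclear partners of beta-catenin, all tested, 3 fell and 1 rose (44.4%, against 24.6% of all genes). Their median log2 fold change was -0.14. BCL9L, a coactivator, fell from 179 to 110 CPM (-0.71, SE 0.09, edgeR adjusted p = 7.08e-04) and its relative BCL9 from 17.1 to 7.65 CPM (-1.16, SE 0.13, edgeR adjusted p = 3.31e-04). Among the DNA-binding partners, TCF7L1 rose from 2.32 to 5.24 CPM (1.18, SE 0.21, edgeR adjusted p = 0.00345) and LEF1 fell from 3.4 to 1.5 CPM (-1.18, SE 0.32, edgeR adjusted p = 0.0226). The LEF1 call was lost without NC replicate 3 (adjusted p = 0.0775 in edgeR) or si-EIF5A2 replicate 2 (adjusted p = 0.0592 in edgeR). TCF7L2 stood at 8.38 ± 1.27 and 8.08 ± 4.36 CPM (SD, n = 3 each).

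Transcription factors known to act on CDH5 include ETS family members. Of 8 such genes, 7 were tested, of which 1 fell and 1 rose (28.6%, against 24.6% of all genes). Their median log2 fold change was 0.04. ETS2 rose from 33.2 to 67.7 CPM (1.03, SE 0.09, edgeR adjusted p = 9.31e-05) and FLI1 fell from 42.6 to 28 CPM (-0.61, SE 0.09, edgeR adjusted p = 0.00122). FLI1 came inside the fold limit at -0.56 without si-EIF5A2 replicate 3. ETS1 (449 and 344 CPM, log2 fold change -0.38, SE 0.09), EPAS1 (0.43, SE 0.08) and GATA2 (0.04, SE 0.13) were inside the fold limit, and ERG, the factor best known for endothelium, was at 0.25 and 0.158 CPM. The 6 repressors of CDH1 had a median log2 fold change of 0.32. TCF3 rose from 23.1 to 52.0 CPM (1.17, SE 0.11, edgeR adjusted p = 1.36e-04). ZEB2 rose (0.60, SE 0.17, edgeR adjusted p = 0.0227) and TWIST1 fell (-0.63, SE 0.19, edgeR adjusted p = 0.0341). Both of these calls hung on single libraries. ZEB2 lost its call without NC replicate 2, NC replicate 3, si-EIF5A2 replicate 1 or si-EIF5A2 replicate 3 (edgeR adjusted p from 0.062 to 0.0784), and TWIST1 lost its call without any 1 library other than si-EIF5A2 replicate 1 (edgeR adjusted p from 0.0649 to 0.0994). ZEB1 (34.3 and 40.5 CPM) and SNAI2 (19.2 and 25.6 CPM) did not pass.

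CDH5 is a marker of endothelium, so the other endothelial genes and the markers of the cell line were read beside it. Of 27 endothelial markers, 20 were tested, of which 8 fell and 1 rose (45.0%, against 24.6% of all genes). The median log2 fold change of those tested was -0.63. The summed level of the 27 markers was 1100 to 1250 CPM in NC and 1210 to 1220 CPM in si-EIF5A2. This sum includes ESM1, whose rise from 136 to 475 CPM offset lower levels of TIE1, ENG, ECSCR and ROBO4. Among the 27 markers, KDR, FLT1, CLDN5, VWF, TEK and ERG were near 0, and EMCN and CLEC14A had 0 counts in every library. Others had high CPM, among them the receptor kinase TIE1 (340 and 267 CPM in NC and si-EIF5A2), the TGF-beta coreceptor ENG (310 and 222 CPM), the surface protein ECSCR (165 and 107 CPM), the secreted proteoglycan ESM1 (136 and 475 CPM) and the guidance receptor ROBO4 (95.2 and 60.9 CPM).

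The 9 endothelial markers past the threshold were ESM1, MMRN2, ECSCR, ROBO4, NOS3, EGFL7, SOX7, ICAM2 and CD34. ESM1 was the marker that rose, at 131, 135 and 140 CPM in NC and 478, 470 and 475 CPM in si-EIF5A2 (log2 fold change 1.81, SE 0.07, edgeR adjusted p = 4.80e-06). MMRN2, a matrix protein of vessels, was at 4.11, 4.16 and 4.02 CPM in NC and at 0.665, 0.421 and 0.709 CPM in si-EIF5A2 (-2.77, SE 0.27, edgeR adjusted p = 1.54e-04). NOS3, the endothelial nitric oxide synthase, was at 5.45, 4.76 and 5.34 CPM in NC and at 0.235, 1.17 and 0.438 CPM in si-EIF5A2 (-3.07, SE 0.53, edgeR adjusted p = 0.00378). These 2 genes, like CDH5, had every si-EIF5A2 library far below every NC library. EGFL7, a secreted vessel protein, fell from 33.3 to 17.9 CPM (-0.89, SE 0.16, edgeR adjusted p = 0.00378). ECSCR (-0.62, SE 0.09) and ROBO4 (-0.64, SE 0.10) fell too, but came inside the fold limit, ECSCR at -0.57 without si-EIF5A2 replicate 3 and ROBO4 at -0.58 without NC replicate 1 or at -0.57 with si-EIF5A2 replicate 2 left out. ECSCR shares 72.5% of its exon bases with AC142391.1 on the same strand, which had at most 150 counts. MMRN2 shares 8.25% with ADIRF-AS1 on the same strand, which had 644 to 1476 counts in NC and 582 to 731 in si-EIF5A2. MMRN2 itself had 189 to 300 counts in NC and 22 to 34 in si-EIF5A2. NOS3 shares 13.2% with ATG9B on the opposite strand, which had at most 42 counts in NC and 0 in every si-EIF5A2 library. The counts of ECSCR, MMRN2 and NOS3 are therefore less certain. TIE1 (-0.35, SE 0.07) and ENG (-0.48, SE 0.10) were inside the fold limit. SOX7, a transcription factor, fell from 18.1 to 10.4 CPM (-0.80, SE 0.18). It shares 39.4% of its exon bases with PINX1 on the same strand, which had 0 counts, so the counts of SOX7 are less certain too. ICAM2, an adhesion molecule, fell from 25.3 to 14.0 CPM (-0.86, SE 0.26, edgeR adjusted p = 0.0385). The ICAM2 call was lost without NC replicate 1, NC replicate 2, NC replicate 3 or si-EIF5A2 replicate 2 (edgeR adjusted p from 0.0562 to 0.112), and ICAM2 shares 26.8% of its exon bases with PRR29 on the opposite strand. CD34, a surface glycoprotein, was at 0.406 CPM in NC and had counts in 1 si-EIF5A2 library, and its call was lost without any 1 library other than si-EIF5A2 replicate 3 (edgeR adjusted p from 0.0748 to 0.126). The junction protein ESAM (10.3 and 8.97 CPM), the receptor S1PR1 (16 and 22.1 CPM), the transcription factor SOX17 (3.80 and 4.46 CPM) and the junction protein PECAM1 (1.87 and 0.318 CPM) did not pass.

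Of the 8 epithelial markers of the cell line, 7 had a mean over 1 CPM in either group, at levels that differed widely. In NC and si-EIF5A2, the keratins were at 608 and 377 CPM for KRT8, 418 and 396 CPM for KRT18, 382 and 209 CPM for KRT7 and 3.22 and 2.46 CPM for KRT19, and PAX8, a transcription factor of the Müllerian duct lineage, was at 106 and 61.0 CPM. Of 7 markers tested, KRT7 (-0.87, SE 0.08), KRT8 (-0.69, SE 0.09) and PAX8 (-0.80, SE 0.11) fell and none rose. That is 42.9%, against 24.6% of all genes, and the median log2 fold change of the 7 was -0.39. The summed level of the 8 markers was 1510 to 1670 CPM in NC and 956 to 1170 CPM in si-EIF5A2. ERBB2, the receptor gene that SKOV3 is known for carrying in amplified form, was at 45.9 and 45.4 CPM, which per kilobase was the 60.1th percentile of tested genes in NC. The identity of the cells as SKOV3 was taken from the study and was not tested. EPCAM was at 1.55 and 1.37 CPM, and MUC16 had 0 counts in every library. KRT8 and KRT18 share 525 exon bases on opposite strands. The 5 fibroblast markers summed to 0.872 to 1.41 CPM in NC and 0.861 to 2.52 CPM in si-EIF5A2. Of these, 2 were tested and 1 was past the threshold, against 24.6% of all genes. PDGFRB, at 0.601 and 0.0278 CPM, fell. The PDGFRB call was lost without NC replicate 2, NC replicate 3, si-EIF5A2 replicate 1 or si-EIF5A2 replicate 2 (edgeR adjusted p from 0.0627 to 0.0789). COL1A1, at 0.598 and 1.3 CPM, went the other way (log2 fold change 1.09, SE 0.83). It did not pass, and its libraries overlapped between the groups. The 5 leukocyte markers summed to at most 0.155 CPM and none was tested. The part of the levels of these markers in the difference of CDH5 was not tested.

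**Figure D4:**
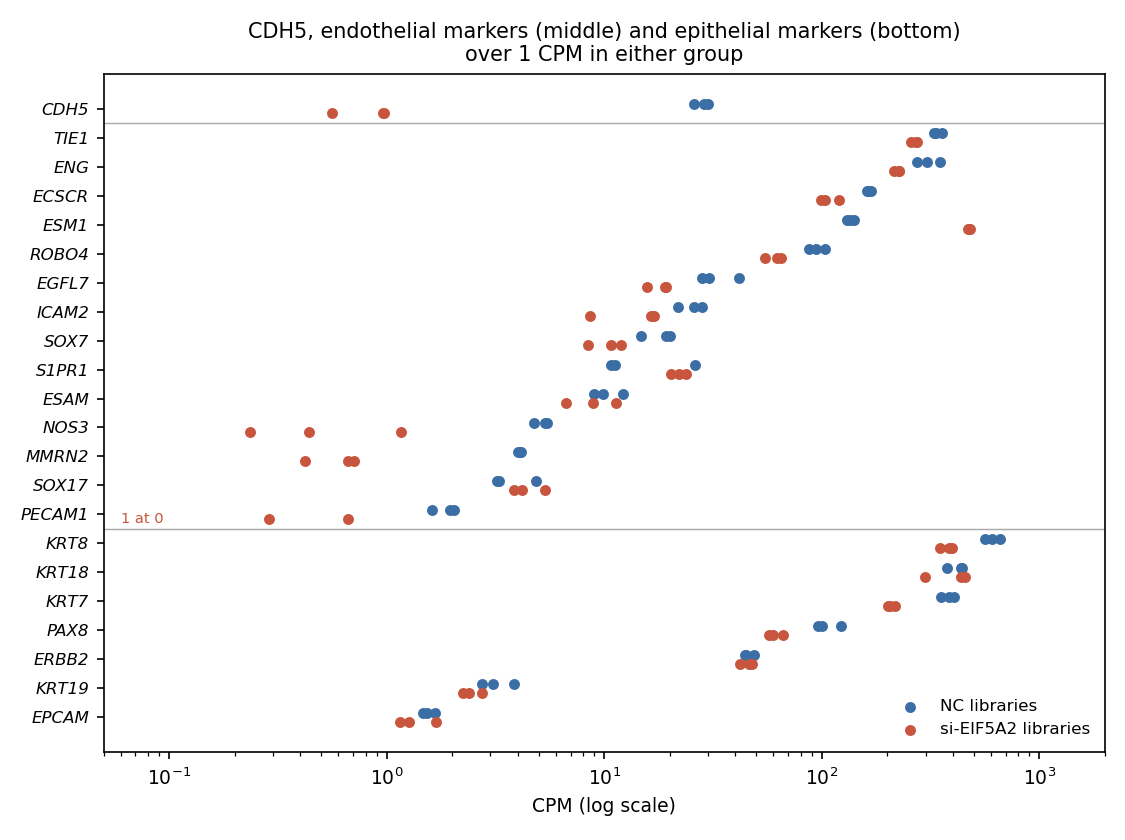
CPM on a log scale (horizontal axis) of CDH5 (top), of the endothelial markers (middle) and of the epithelial markers (bottom) with a mean over 1 CPM in either group. Each point is 1 library, blue for NC and red for si-EIF5A2, and the number of si-EIF5A2 libraries at 0 is written at the left edge. CDH5, NOS3, MMRN2 and PECAM1 are the rows whose red points lie furthest to the left of the blue ones, and ESM1 has its red points to the right.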

How the data were processed

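Total RNA of 6 SKOV3 libraries, 3 per group, was sequenced as paired-end mRNA libraries. From StringTie and ballgown, the authors made a table of estimated counts, 1 whole number for each gene and library, which they deposited without normalization. The aligner and build of the human reads are not given in the sources used here, since the submitters' processing notes name Bowtie 0.12.2 and mouse builds. The table had 0 columns without a sample. Of its identifiers, 58552 were found in GENCODE release 29, which gave positions, exon lengths and coding bases.

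Counts were fitted in R 4.3.3 with edgeR 4.0.16, using filterByExpr, TMM normalization, robust quasi-likelihood fits with the condition as the only term, and Benjamini-Hochberg adjustment over 16208 genes. CPM, counts scaled by TMM library sizes, describe levels. The SE of a log2 fold change was obtained from its F statistic, as the change over the root of F. The members and all gene lists were chosen with earlier results of these data known. Named were all members, in each list the genes past the threshold where they were 5 or fewer and otherwise the 5 with the smallest adjusted p, the 5 profiles nearest to CDH5, its 3 nearest protein-coding genes on each side, and cell type markers over 1 CPM. Further tested genes were added to show the lists. Alternatives were RLE normalization, library size only, no filter, DESeq2 1.42.0, counts divided by their step, the replicate number as a block, other thresholds and leaving out each library. Limits from counts cover counting error only. A gene of the processing list and an overlapping neighbour gene are not reported here.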

Additional observations from a re-analysis of the deposited data

How the results depend on the processing

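For the 10 genes only the size of the change was followed. Over the other normalizations, filters and tools, the log2 fold change was -5.11 to -5.07 for CDH5 and 0.83 to 0.87 for CDH2, so CDH2 lies inside a limit of 2-fold. CTNNB1 turned from 0.04 to -0.03 without si-EIF5A2 replicate 1 and to -0.01 without NC replicate 2. CDH1 could not be fitted once counts were divided by their step. With an unadjusted p under 0.05 and a fold over 2, 2370 genes in all and 9 of the junction genes outside the 10 passed, against 3992 and 16. With no limit on the fold the numbers were 5974 and 23, and DESeq2 gave 4338 and 18. Leaving out each library in turn gave 3638 to 3907 genes in all and 13 to 16 junction genes. With the replicate block, 3731 and 14 passed. Deviations of samples with the same number had correlations of -0.024, 0.005 and -0.003, and these samples were not treated as paired. Such correlations cannot show whether they shared a culture or a preparation. For genes near 0, the depth of these libraries limits what could be seen.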
